A study of Homo sapiens with 4 samples.

Results

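RAD21 binding was described at 9 genes of the human major histocompatibility complex (MHC) on chromosome 6, the class I genes HLA-B, HLA-C and HLA-E and the class II genes HLA-DRA, HLA-DRB1, HLA-DQA1, HLA-DQB1, HLA-DPA1 and HLA-DPB1. The 9 genes were chosen by name among 20033 protein-coding genes of chromosomes 1 to 22, X and Y in the GENCODE version 44 annotation. Their peaks were those whose summit, the position of highest enrichment, lay in the gene or within 20 kb of it. This gave 9 of the 56853 peaks in the list. Peaks between HLA-DRB1 and HLA-DQA1 and on either side of HLA-DQB1 were examined in addition as candidate insulators.

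The study comprised 4 ChIP-seq libraries without replicates, and the values given here come from the RAD21 library of untreated wild-type HCT116 cells, a human colon carcinoma line. HCT116_RAD21_AID cells, with or without IAA and α-NAA at 500 μM each for 6 h, and the Input of the auxin-treated cells made up the other libraries, which were not analysed here. Those cells are a single clone that carries the mAID degron in the RAD21 gene and expresses the OsTIR1 ubiquitin ligase. ChIP-seq reads the DNA fragments that an antibody, here one against RAD21, pulls down from fixed and sonicated chromatin. A single library gives no spread between replicates, so differences are described here without a test.

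Class I molecules carry peptides from inside the cell to its surface for cytotoxic T cells and natural killer cells, and most cells make them. Class II molecules present peptides from endocytosed material to helper T cells, and they are made mainly by professional antigen-presenting cells or after induction of the transactivator CIITA by interferon gamma. RAD21 is the subunit that closes the cohesin ring. Cohesin extrudes chromatin loops and is halted at sites bound by CTCF, above all where the CTCF motif points towards the arriving cohesin, so that loops often form between motifs that face each other. In B cells, insulator elements bound by CTCF are known between the HLA-DR and HLA-DQ genes.

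RAD21 peaks stood near 6 of the 9 genes. HLA-B had 3, HLA-E had 2, HLA-C and HLA-DRA had 1 each, and the neighbours HLA-DPA1 and HLA-DPB1 shared the same 2. HLA-DRB1, HLA-DQA1 and HLA-DQB1 had 0. Over all protein-coding genes, 88.9% had a summit in the gene or within 20 kb. The highest fold enrichment, 34.2 at the upstream end of HLA-B, exceeded that of 96.8% of the peaks in the list. The lowest, 2.62 at the start of the same gene, exceeded that of 9.12%. Fold enrichment is the number of ChIP fragments at the summit over the local background, each with 1 added. The background is the larger of a genome-wide mean and the Input counts around the position, and its lowest value in the list, the floor, was 5.90 fragments.

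The direction of the CTCF-like site differs between the peak upstream of HLA-DRA and the nearest peaks with a site beyond HLA-DQB1. Farther on, towards and beyond HLA-DPB1, peaks held sites on both strands. The sequences at the peaks on which the description turns are therefore shown first. They were read from the GRCh38 reference, 5′ to 3′ on the strand of the site, with the CTCF-like site of 19 bases in capitals. For the highest HLA-B peak the site alone is shown, since the summit lies in a transcribed exon.
HLA-B upstream end, chr6:31367064-31367082, minus strand: CGACCACCAGGTGGCGCTG
Beyond HLA-B, chr6:31374280-31374360, minus strand: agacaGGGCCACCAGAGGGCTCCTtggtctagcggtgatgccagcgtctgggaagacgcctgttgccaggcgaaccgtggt
Upstream of HLA-E, chr6:30482226-30482306, plus strand: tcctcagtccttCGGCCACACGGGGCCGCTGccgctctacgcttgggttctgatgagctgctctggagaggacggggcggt
Upstream of HLA-DRA, chr6:32432132-32432212, plus strand: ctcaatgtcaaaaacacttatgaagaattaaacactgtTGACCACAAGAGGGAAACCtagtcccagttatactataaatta
HLA-DQB1 side, nearest, chr6:32692162-32692242, minus strand: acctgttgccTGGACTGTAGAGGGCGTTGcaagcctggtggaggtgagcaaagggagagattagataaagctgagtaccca
HLA-DQB1 side, highest, chr6:32700624-32700704, minus strand: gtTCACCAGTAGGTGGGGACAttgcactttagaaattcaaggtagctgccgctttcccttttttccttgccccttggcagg
Beyond HLA-DPB1, chr6:33092103-33092183, minus strand: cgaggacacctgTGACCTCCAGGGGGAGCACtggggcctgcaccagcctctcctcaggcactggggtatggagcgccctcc

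Sites were found with a weight matrix trained on 9246 matches to the CTCF consensus, with at most 1 mismatch, at peaks of fold enrichment 10 or more outside chromosome 6. A site within 50 bp of the summit was counted from a score of 5.453 bits, which 5% of control windows 5 kb away also reached. A higher score of 10.11 bits was reached by 1% of them. At the lower score 7 of the 9 peaks held a site, beside 67.3% of all peaks (those used for training included), and by the exact consensus on either strand 2 of 9 did, beside 11.4% of all peaks and 0.051% of control windows. Both exact matches were at HLA-B. A match is a description of the letters and does not show that CTCF was bound.

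**Figure D1:**
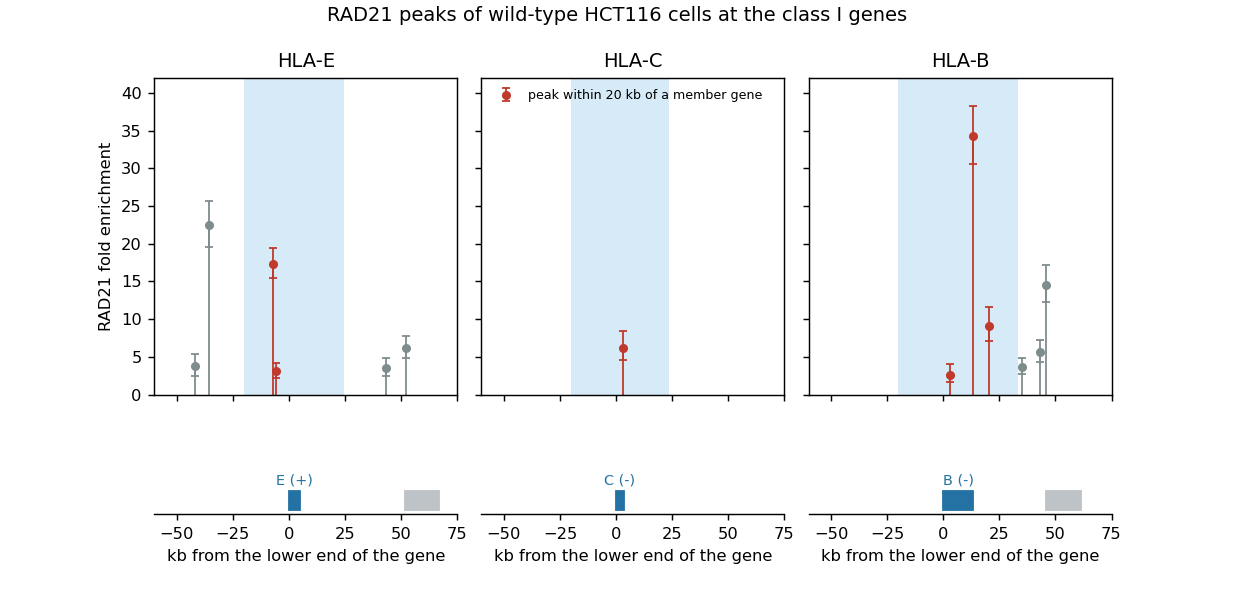
RAD21 fold enrichment at peak summits (vertical axis) by distance from the lower end of HLA-E, HLA-C and HLA-B in kb (horizontal axis), with the gene and 20 kb on either side shaded, error bars for the 95% Poisson interval of the fragments, peaks of the member genes in red, other peaks in grey, and protein-coding genes as boxes below. HLA-B holds the highest peak at 34.2, HLA-E a peak of 17.4 upstream of the gene, and HLA-C a single peak of 6.22.

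HLA-B encodes a classical class I heavy chain, and it had the most peaks and the highest fold enrichment of the 9 genes. The gene (ENSG00000234745.14, chr6:31353872-31367067, minus strand) was annotated with a canonical transcript and with longer ones that begin further upstream. The highest peak (chr6:31366763-31367335) had its summit 8 bp from an annotated start of a longer transcript, in an exon shared with the pseudogene DHFRP2 and far upstream of the canonical start. It held 314 fragments (95% Poisson interval, 280 to 351) over a background of 8.21. Its site scored 23.01 bits, the highest among the 9 peaks, on the minus strand. Intervals of fragment numbers given here cover counting error only.

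The HLA-B peak at 31374320 (chr6:31374146-31374535) lay 7253 bp beyond the upstream end of the gene, in an intron of the gene ENSG00000285647. It had 62 fragments (47.5 to 79.5), a background at the floor and a fold enrichment of 9.13, with a minus-strand site of 18.61 bits. The weakest HLA-B peak (chr6:31356804-31357115) lay in a coding exon, 334 bp downstream of the canonical start. It had 19 fragments (11.4 to 29.7), a fold enrichment of 2.62 and a −log10 q of 2.53, and it held no site. The 3 HLA-B peaks therefore ranged from the lowest to the highest fold enrichment among the 9, and their intervals of fragment numbers did not overlap.

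HLA-C, another classical class I heavy chain gene (ENSG00000204525.18, chr6:31268749-31272130, minus strand), had 1 peak (chr6:31271460-31272024), likewise in a coding exon, 394 bp downstream of the canonical start. It had 42 fragments (30.3 to 56.8), a background of 5.91 and a fold enrichment of 6.22, and it held no site. The next summits were 70084 bp and 84715 bp away from the gene. The HLA-C peak and the weakest HLA-B peak lay in matching sequence, since 863 of 940 aligned bases around the summits were identical (91.8%). Reads of such close copies can be placed at the wrong gene, although the 100 bases around each summit had 1 copy in the primary assembly. The fragment intervals of these peaks, 30.3 to 56.8 at HLA-C and 11.4 to 29.7 at HLA-B, did not overlap.

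HLA-E encodes a nonclassical class I heavy chain that presents leader peptides of other class I molecules to natural killer cells. The gene (ENSG00000204592.9, chr6:30489509-30494194, plus strand) held no summit, and both of its peaks lay upstream. The farther peak (chr6:30481928-30482544), 7243 bp upstream of the start and at the promoter of ENSG00000288805, had 296 fragments (263 to 332) and a fold enrichment of 17.4. Its background of 16.1 was 2.73 times the floor, the highest among the 9 peaks, so it had nearly as many fragments as the HLA-B peak of 314 at a lower fold enrichment. Its site, on the plus strand, scored 5.967 bits, just past the limit. The nearer peak (chr6:30483681-30483948), 5661 bp upstream, had 40 fragments (28.6 to 54.5), a background of 12.3 and a fold enrichment of 3.08, with a plus-strand site of 10.74 bits. At HLA-E, the peak with the lower site score thus had more fragments. At HLA-B, by contrast, the fragments followed the order of the scores.

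Summits fell within 1 kb of an annotated transcription start of HLA-B and HLA-C, 2 of the 9 genes, beside 43.8% of all protein-coding genes. The HLA-C summit and that of the weakest HLA-B peak lay downstream of the canonical start, and the highest HLA-B summit lay at a start of the longer transcripts. None of the 6 class II genes had a summit within this distance. A summit lay 1954 bp from a start of HLA-DPB1, so this absence did not hold at 2 kb.

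**Figure D2:**
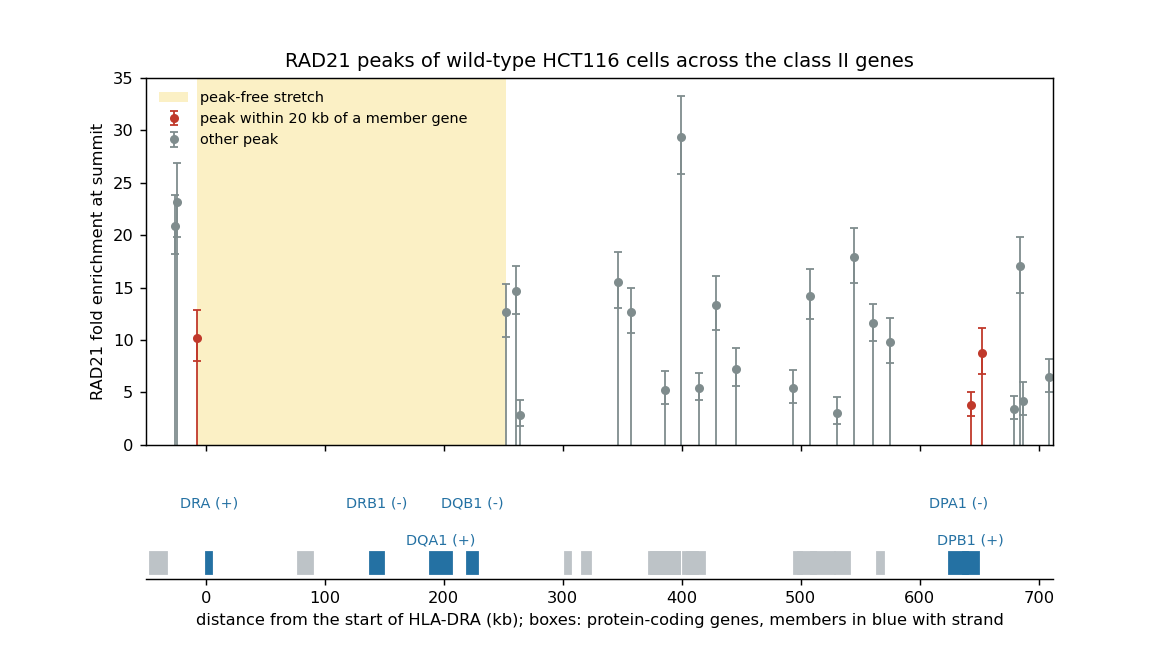
RAD21 fold enrichment at peak summits (vertical axis) by distance from the start of HLA-DRA in kb (horizontal axis), with error bars for the 95% Poisson interval of the fragments, peaks of the member genes in red and other peaks in grey, and protein-coding genes as boxes below with the members in blue. The shaded stretch of 259.4 kb over HLA-DRA, HLA-DRB1, HLA-DQA1 and HLA-DQB1 holds 0 peaks, whereas HLA-DPA1 and HLA-DPB1 share 2.

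HLA-DRA encodes the DR alpha chain, which pairs with all DR beta chains. The gene (ENSG00000204287.14, chr6:32439878-32445046, plus strand) had a single peak (chr6:32431987-32432589) in intergenic sequence, 7706 bp upstream of the gene. It had 70 fragments (54.6 to 88.4), a background of 5.98 and a fold enrichment of 10.2, above that of 73.3% of all peaks. Its site of 14.06 bits was on the plus strand and thus pointed towards the class II genes. Higher peaks lay just outside the limit of 20 kb, at 32415629 with a fold enrichment of 23.2 and at 32413640 with 20.9, 4249 bp and 6238 bp beyond it. Both also held plus-strand sites.

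HLA-DRB1 encodes the main DR beta chain, and HLA-DQA1 and HLA-DQB1 encode the alpha and beta chains of DQ. These genes (ENSG00000196126.12, chr6:32577902-32589848, minus strand; ENSG00000196735.13, chr6:32628179-32647062, plus strand; ENSG00000179344.17, chr6:32659467-32668383, minus strand) had 0 peaks within 20 kb. The nearest summit was 102354 bp from HLA-DRB1, 45140 bp from HLA-DQA1 and 23819 bp from HLA-DQB1. In all 3 cases it was the same peak, beyond HLA-DQB1. Only 1.28% of protein-coding genes (257 of 20033) were farther from a summit than HLA-DRB1. For HLA-DQA1 this share was 4.36%, and for HLA-DQB1 it was 9.40%.

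The first candidate insulator space, between HLA-DRB1 and HLA-DQA1, spans 38330 bp and held 0 peaks. The space of 12404 bp between HLA-DQA1 and HLA-DQB1 also held 0. By contrast, the space of 73007 bp between HLA-DQB1 and the next protein-coding gene, HLA-DQA2, held 3 summits, all of them more than 20 kb from HLA-DQB1. Of 7203 spaces of 10 to 100 kb between neighbouring protein-coding genes, 64.1% held a summit and 13.5% held 3 or more. A space without a summit was thus not rare. These shares were not matched for length, and the space with 3 summits was the longest of those described here. Whether 3 summits are many for a space of its length was not tested.

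The nearest of the 3 peaks (chr6:32691999-32692416) lay 3819 bp outside the limit around HLA-DQB1. It had 102 fragments (83.2 to 124), a background of 7.15 and a fold enrichment of 12.6, with a minus-strand site of 11.83 bits. The next (chr6:32700338-32701026) was the highest, with 166 fragments (142 to 193), a background of 10.4 and a fold enrichment of 14.6, and its minus-strand site scored 13.11 bits. The last (chr6:32704019-32704267) was weak, with 21 fragments (13.0 to 32.1) and a fold enrichment of 2.84, and it held no site. The fold enrichments exceeded those of 79.8%, 83.6% and 13.6% of all peaks, in this order.

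The peak upstream of HLA-DRA and the nearest peak on the HLA-DQB1 side bounded a stretch of 259409 bp (chr6:32432590-32691998) with 0 peaks. It contained HLA-DRA, HLA-DRB1, HLA-DQA1 and HLA-DQB1 among the members, and HLA-DRB5. It was the longest stretch without a peak in the MHC from GABBR1 to KIFC1, followed by 157797 bp over BTNL2 and TSBP1 and by 118704 bp over RPP21 and TRIM39. On chromosome 6, 94 of 2922 distances between neighbouring peaks (3.22%) were as long or longer, with a median distance of 31269 bp. Over chromosomes 1 to 22, X and Y the number was 1438 of 56373 (2.55%), so that stretches of this length occurred elsewhere too. The list holds only positions past its threshold. At the floor of the background, the weakest listed peak had 15 fragments and a fold enrichment of 2.32, and weaker binding within the stretch was not detectable.

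The sites on either side of the stretch faced each other. The 3 summits before it, including that of HLA-DRA, had plus-strand sites, and the summits at 32692202 and 32700664 after it had minus-strand sites. Among 17901 neighbouring pairs of peaks that both held a site, 22.1% were of this facing kind, so the arrangement of the bounding pair was a common one. Whether a loop joins them was not measured.

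The matrix also found sites inside the stretch. None of them could lie in a peak, because the stretch was defined as free of peaks. The shares on chromosome 6 are therefore given only to place the scores of these sites. At 10.11 bits or more there were 17 sites, of which 3 lay between HLA-DRB1 and HLA-DQA1. The share of chromosome 6 sites at this score that lay in a peak was 19.0%, and it was larger at higher scores. It was 7.87% of 5665 sites from 10.11 to under 12 bits, 31.2% of 1254 sites from 14 to under 16 bits, 57.5% of 649 sites from 16 to under 18 bits and 85.5% of 477 sites at 18 bits or more. The last 2 groups together gave 69.4% of 1126 sites. The stretch had 2 sites from 16 to under 18 bits and 0 sites at 18 bits or more. These 2 sites are given for their position between or in the class II genes, with the site in capitals.
HLA-DRB1 to HLA-DQA1, chr6:32622603-32622661, plus strand: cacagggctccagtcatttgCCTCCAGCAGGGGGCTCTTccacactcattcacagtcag
In HLA-DQB1, chr6:32663011-32663069, plus strand: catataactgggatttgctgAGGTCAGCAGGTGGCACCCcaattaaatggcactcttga
Their scores were 16.55 and 17.52 bits, and both are on the plus strand.

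**Figure D3:**
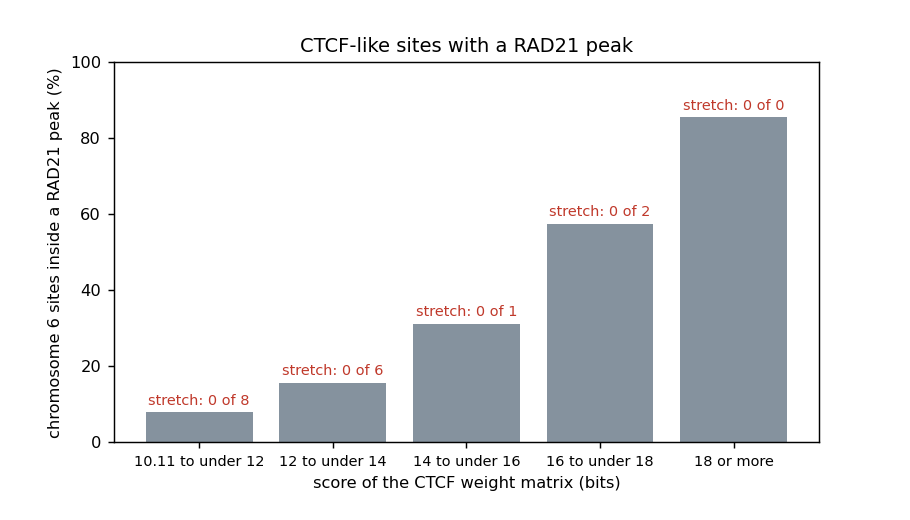
Share of CTCF-like sites on chromosome 6 that lie inside a RAD21 peak (vertical axis, %, bars from 0) by the score of the weight matrix in bits (horizontal axis), with the number of sites in the peak-free stretch and how many of them lie in a peak written above each bar. The share rises from 7.87% to 85.5%, and the stretch has 17 sites, most at the lower scores. That 0 of them lie in a peak follows from the definition of the stretch.

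The same stretch held the part of the class II region where the reference sequence was least often found in any other MHC haplotype. The GRCh38 assembly carries 7 alternate haplotypes of the MHC, and each stretch of 100 bases of the reference (100-mer) was looked up in them without mismatch. In bins of 5 kb, a median of 5.66% of 100-mers of the peak-free stretch were present in any alternate (51 bins, 0.0% to 98.0%). In the rest of the class II region the median was 99.4% (98 bins, 80.2% to 100.0%). Of the bins in the stretch, 24 had under 5%, beside 0 of the others. The share was 13.8% between HLA-DRB1 and HLA-DQA1 and 2.45% between HLA-DQA1 and HLA-DQB1, but 89.9% between HLA-DQB1 and HLA-DQA2. Some alternates are incomplete, with up to 49.3% of unresolved bases, which lowers these shares. In the complete alternate alone, the share was 18.4% over the whole stretch. Low shares with that alternate also occurred outside the stretch. A bin of 5 kb between HLA-DQB1 and HLA-DQA2 had 2.24%, and the peak at 32415629 had 10.4%.

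**Figure D4:**
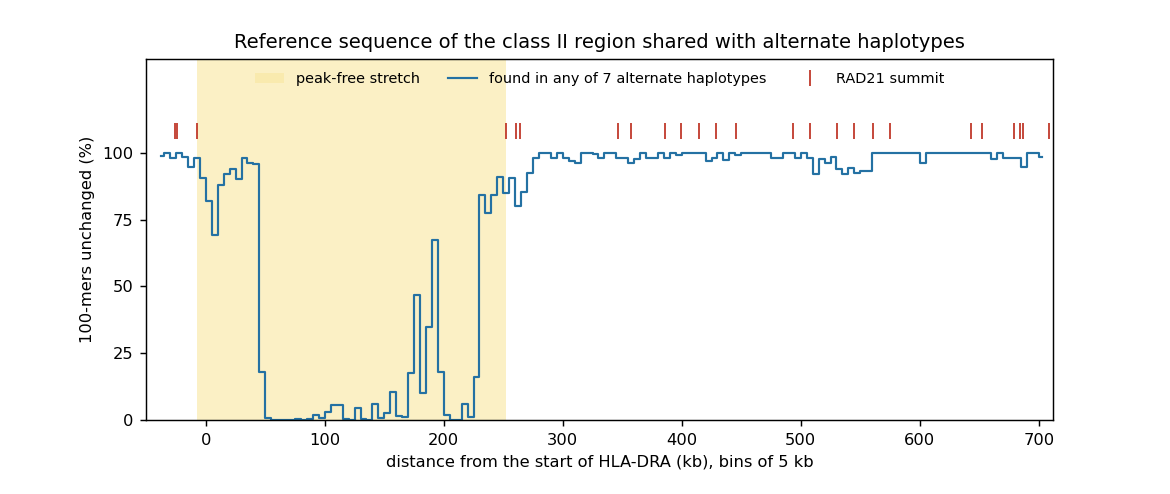
Share of 100-mers of the reference that occur unchanged in any of 7 alternate MHC haplotypes (vertical axis, %) in bins of 5 kb by distance from the start of HLA-DRA in kb (horizontal axis), with RAD21 summits as red ticks above and the peak-free stretch shaded. Inside the stretch the share falls below 5% in 24 of 51 bins, and outside it the lowest bin is at 80.2%.

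The shares were also taken by gene. Over each gene with 20 kb on either side, as for the peaks, they were 2.64% for HLA-DRB1, 17.3% for HLA-DQA1 and 33.8% for HLA-DQB1, which had 0 peaks. They were 56.8% for HLA-B, 61.3% for HLA-C, 89.7% for HLA-DRA, 99.6% for HLA-E, 99.8% for HLA-DPB1 and 100.0% for HLA-DPA1. Over the gene alone the share was 0.556% for HLA-DQB1 and 2.57% for HLA-DRB1. At the HLA-B peak of fold enrichment 9.13, however, 2.75% of the 100-mers were present in an alternate. HLA-DRA itself, in the stretch, held no summit although 82.4% of its 100-mers were shared. Reads that differ strongly from the reference can fail to align. The listed background cannot show a lack of alignable reads, since it does not fall below its floor. The part of sequence difference in the absence of peaks was not tested. The share of 100-mers with a second exact copy in the primary assembly was 1.36% in the stretch. Of the sites printed last, that at 32622623 was present without mismatch in 3 of the 7 alternates, and that at 32663031 in 0.

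HLA-DPA1 and HLA-DPB1, which encode the alpha and beta chains of DP, overlap head to head (ENSG00000231389.8, chr6:33064569-33080775, minus strand; ENSG00000223865.11, chr6:33075990-33089696, plus strand). The peak in an intron of HLA-DPB1 (chr6:33082750-33082995) lay 2120 bp from the upstream end of HLA-DPA1. It had 42 fragments (30.3 to 56.8), a background of 10.4 and a fold enrichment of 3.77, with a minus-strand site of 10.93 bits. The other peak (chr6:33091820-33092360), 2447 bp beyond HLA-DPB1 in an exon of the pseudogene HLA-DPA2, had 62 fragments (47.5 to 79.5), a background of 6.23 and a fold enrichment of 8.72, with a minus-strand site of 13.82 bits. The intervals of the fragment numbers overlapped, whereas the backgrounds differed, so the order of the fold enrichments rested in part on the background.

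Over the windows of the genes, the 9 peaks lay in 0.382 Mb, or 23.6 peaks per Mb, beside 40.0 in the MHC, 17.2 on chromosome 6 and 19.2 on chromosomes 1 to 22, X and Y. The class I windows had 42.5 per Mb (6 peaks) and the class II windows 12.5 per Mb (3 peaks). The median fold enrichment was 8.72 for the 9 peaks (quartiles, 3.77 and 10.2), beside 6.53 for the 154 peaks of the MHC and 5.58 for the whole list. It was 7.68 at class I and 8.72 at class II genes. A fold enrichment of 10 or more was reached by 3 of the 9 peaks, at HLA-B, HLA-E and HLA-DRA, beside 27.2% of the whole list, which is a similar share. The difference in the count of peaks depended on the window, since with 50 kb on either side there were 13 peaks at class I and 12 at class II genes. The class II windows cover more sequence (0.2408 Mb against 0.1413 Mb at 20 kb), so similar counts do not mean similar densities. Densities by class were not computed at 50 kb.

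Other genes of antigen presentation, from a list of 20, were counted in the same way. Of these, 16 had a peak within 20 kb, beside 88.9% of all protein-coding genes, and 7 had one within 1 kb of a transcription start, beside 43.8%. Neither count exceeded its background, and genes that lie close together shared peaks. TAP1 and TAP2, which transport peptides for class I molecules, had 4 and 3 peaks, and the immunoproteasome genes PSMB8 and PSMB9 had 3 and 4. All of these were drawn from the same 4 summits, with a highest fold enrichment of 29.4. TAPBP, which encodes the loading chaperone tapasin, had 2. Among the class II loading genes, HLA-DMA had 4 peaks, HLA-DOA and HLA-DOB had 3 each, and HLA-DMB had 2, whereas CD74, the invariant chain gene on chromosome 5, had 0. HLA-F had 3 and HLA-G had 2, with highest fold enrichments of 33.2 and 80.7, but HLA-DRB5, HLA-DQA2 and HLA-DQB2 had 0. The 5 regulators each had a peak, as did most genes. CIITA had 3, up to 31.2, and NLRC5, which activates class I genes, had 5, up to 18.1. RFX5, RFXAP and RFXANK, the subunits of the RFX factor that binds MHC promoters, had 1, 4 and 3 peaks, up to 9.13, 4.93 and 19.6. Apart from CD74, the genes without a peak, members included, were DR beta, DQ alpha and DQ beta genes. Of these, HLA-DRB1, HLA-DRB5, HLA-DQA1 and HLA-DQB1 lay together in the peak-free stretch, whereas HLA-DQA2 and HLA-DQB2 lay beyond it. A summit at 32786058 was just past the limit of 20 kb from HLA-DQB2.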

How the data were processed

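The source was a peak list of RAD21 ChIP-seq in wild-type HCT116 cells without treatment (1 library). Per the study's methods and the submitters' processing notes, the authors trimmed paired reads (Trimmomatic 0.39), aligned them to GRCh38 (Bowtie2 2.5.3), removed duplicates (Picard) and called peaks against Input (MACS2 2.2.9.1, effective genome size 2805636231, q threshold 0.05). Which Input served this library is not given in the sources used here. The deposited list gives the fold enrichment as a ratio, the −log10 of p- and q-values, and a whole-number score, which was not used. Fragments and background were recovered from the fold enrichment and p-value, whole within 0.05 for all but 14 of 56853 peaks, of which 17739 were at the floor. The list gives no library totals, so depth is stated as fragments per summit (median 48), with exact 95% Poisson intervals.

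Genes and transcription starts came from GENCODE version 44. Summit classes, CTCF-like sites (matrix of 19 bases, both strands) and 100-mers were computed on the GRCh38 sequence. The matrix sites could overlap each other. The steps were tested on simulated data. By rule, the text names the 9 member genes with all their peaks, the peaks beside HLA-DQB1, the highest peaks, and by counts the 20 further genes. Members and lists were chosen with earlier results of these data known. The peak-free stretch, its sites, the comparison with alternate haplotypes, the HLA-B and HLA-C peaks in matching sequence and the peaks just outside the windows were added after the data were examined. Scripts ran under Python 3.11.15 with Biopython 1.88, pysam 0.24.0, scipy 1.17.1, numpy 2.4.6, numba 0.67.0, pandas 2.3.3, matplotlib 3.10.9 and samtools 1.23.1.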

Additional observations from a re-analysis of the deposited data

How the results depend on the processing

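Of 104 alternative values for 13 results, 89 lay within 1.5 times the value reported. The window decided most of the others. With summits inside the genes only (0 kb), 3 genes had a peak, and there were 4 peaks (3 at class I, 1 at class II genes), 43.8 per Mb, with a median fold enrichment of 4.99, 1 peak of fold enrichment 10 or more and 1 with the CTCF consensus. With 10 kb there were 36.9 peaks per Mb. With 50 kb, 25 peaks were counted (13 at class I, 12 at class II genes), 10 of fold enrichment 10 or more and 4 with the consensus, and 8 of the 9 genes had a peak. The weight matrix in place of the consensus gave 7 peaks with a site. The space between HLA-DRB1 and HLA-DQA1 held 0 peaks and the stretch measured 259409 bp under every q-value threshold (0.01, 0.001 and 1e-05), fold enrichment limit and background limit tried. No alternative could add peaks below the threshold of the list. These limits only remove peaks, so the space could not gain a peak and the stretch could not become shorter. The unchanged length shows only that the peaks bounding the stretch passed each limit. These values are counted among the 89. No paired analysis was possible because 1 library was analysed and no test was made. The list holds no reads, so weaker binding and reads that did not align could not be examined, and 1 library gives no error between cultures.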
